A study of Mus musculus with 4 samples.

Results

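A group of 6 genes of interferon signalling and innate inflammation was followed in mouse heart ventricles under high and low salt: Irf1, Cxcl10, Il6, Cd14, Nfkbia and S100a9. They were taken as all clones whose single platform symbol is one of these names, which gave 7 clones of 16471 and 6 genes of 8106. Irf1 had 2 clones and each of the other genes had 1. The genes were picked with their values on these arrays known, so their own log ratios are given as a description and carry no test. All 6 mice were wild-type males aged 12 to 13 weeks, from a 129Ola/C57BL/6J cross at backcross N5–6 that is labelled 1-renin. Every mouse had 1 kidney removed, received deoxycorticosterone acetate (DOCA, a mineralocorticoid) for 5 weeks and was fed a diet holding 0.5 mg Na per g. Drinking water held 1% NaCl for the 3 animals on high salt and was plain tap water for the 3 on low salt. The low-salt mice are thus the controls and carry the hormone and the surgery too. Each of 4 printed cDNA arrays compared RNA from both ventricles and the septum of 1 animal on high salt with that of 1 animal on low salt. Arrays 1 and 3 held pairs 1 and 3, and arrays 2 and 4 held pair 2 with the dyes exchanged, so n was 3 pairs. The whole ventricle was extracted, so fewer cells of a type and less RNA per cell cannot be told apart.

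Cells of the innate immune system, and to a degree heart muscle, endothelium and fibroblasts, sense microbial products and tissue damage through surface receptors. CD14 is the co-receptor that hands lipopolysaccharide to Toll-like receptor 4. The signal frees the transcription factor NF-kB from its inhibitor IκBα, the product of Nfkbia, and Nfkbia is itself an NF-kB target that restores the inhibitor. Il6 encodes interleukin 6, a cytokine that NF-kB induces and that signals through STAT3. Irf1 is a transcription factor induced by interferon gamma, and Cxcl10 is an interferon-induced chemokine that draws T cells. S100a9 forms calprotectin with S100a8 and is abundant in neutrophils and monocytes.

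The regulatory letters next to 4 of these genes are shown first because they carry the elements through which interferon and NF-kB are known to act. RefSeq promoter windows of assembly GRCm38.p6, each 300 bases long from 250 before to 50 after a transcript start, were found for Irf1, Cxcl10, Il6, Nfkbia and S100a9, with 2 windows for Irf1. The 250 bases before the start are printed 5′ to 3′ on the strand of the gene. Capitals mark a gamma-activated site (TTCNNNGAA, bound by STAT dimers) in Irf1, an interferon-stimulated response element (TTTC, any 2 bases, TTTC, on the other strand, bound by IRF proteins) in Cxcl10, and an NF-kB site (GGG, any 2 bases, TTTCC, on the other strand in Nfkbia) in Il6 and Nfkbia. The Irf1 stretch lies at chr11:53769764-53770013 on the plus strand, that of Cxcl10 at chr5:92348890-92349139 on the minus strand, that of Il6 at chr5:30012864-30013113 on the plus strand and that of Nfkbia at chr12:55492648-55492897 on the minus strand.
Irf1: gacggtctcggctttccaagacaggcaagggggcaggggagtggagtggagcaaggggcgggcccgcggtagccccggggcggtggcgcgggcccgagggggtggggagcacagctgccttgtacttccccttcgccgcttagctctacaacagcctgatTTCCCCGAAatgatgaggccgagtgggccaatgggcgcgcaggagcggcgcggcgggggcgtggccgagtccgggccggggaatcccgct
Cxcl10: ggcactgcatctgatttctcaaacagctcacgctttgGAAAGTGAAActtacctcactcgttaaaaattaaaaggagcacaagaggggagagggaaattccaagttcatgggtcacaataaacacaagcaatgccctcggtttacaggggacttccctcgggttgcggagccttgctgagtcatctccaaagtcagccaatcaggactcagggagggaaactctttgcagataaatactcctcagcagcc
Il6: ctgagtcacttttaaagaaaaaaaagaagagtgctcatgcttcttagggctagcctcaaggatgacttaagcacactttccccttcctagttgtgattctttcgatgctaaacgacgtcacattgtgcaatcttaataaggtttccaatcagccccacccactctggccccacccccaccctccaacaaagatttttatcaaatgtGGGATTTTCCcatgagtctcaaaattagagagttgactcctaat
Nfkbia: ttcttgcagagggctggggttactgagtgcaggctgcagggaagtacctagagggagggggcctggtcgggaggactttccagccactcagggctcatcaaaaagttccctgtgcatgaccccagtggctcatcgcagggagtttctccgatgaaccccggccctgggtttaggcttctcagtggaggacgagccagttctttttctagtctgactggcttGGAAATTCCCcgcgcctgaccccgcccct

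Both strands were searched in all 32851 windows of the table. The NF-kB site was in 1.63% of them, the gamma-activated site in 8.3% and the interferon-stimulated response element in 3.44%. The marked element began at position -90 from the start in Irf1, at -213 in Cxcl10, at -44 in Il6 and at -29 in Nfkbia. A looser NF-kB pattern, GGG and CC with any 5 bases between, which also covers every match of the first, was in 50.79% of all windows and in those of Irf1, Cxcl10, Il6 and Nfkbia. An AP-1 pattern, TGANTCA, was in 7.81% of windows, among them those of Cxcl10 and Il6. TATAAA was in 13.62%, among them those of S100a9, from position 1, and Nfkbia, from 20 on the other strand. Neither match lay before the start. Within the S100a9 window only TATAAA was found among the 6 patterns, and the second Irf1 window held none. These matches describe letters and are not measured binding.

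Values are log2 ratios, positive where the high-salt heart was higher, with base 2 assumed. That direction is the likely one, from the wording of the array titles, and is not settled by the deposited values. Arrays of opposite dye correlated at r between -0.37 and -0.07 over 16471 clones. Arrays with the same dye on high salt came from different animals and correlated at 0.57 (arrays 1 and 2) and 0.43 (arrays 3 and 4). Arrays 2 and 4, which share their RNA, stood at -0.07. Over all clones the values thus grouped by dye and not by animal pair, which limits every value below. The means of the 6 genes, the medians of the pathway lists and the means of the leading list genes are therefore also given with arrays 1 and 2 turned in sign, called turned below. Among genes past 1 in size on both arrays of pair 2, which share their RNA and differ in dye, 11 of 19 had the same sign on both, a count chosen after the values were seen.

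All 6 genes lay below 0 on average, on the deposited reading. S100a9 and Irf1 lay farthest below, at about 2.68-fold and 2.40-fold less RNA in high salt, followed by Nfkbia and Il6. Cd14 and Cxcl10 lay nearer to 0, at ranks of 1.48% and 3.82% from the lowest of all genes. Of 24 values of gene by array, 22 were below 0, and both exceptions were on array 4. In 4 of the 6 genes all arrays were below 0, against 7.75% of all 8106 genes, and in 0 of the 6 all were above 0, against 7.01%. The genes were chosen from this comparison, so nothing follows from that count. Across all genes, limma with Benjamini-Hochberg adjustment passed 0 of 8106 genes at 0.05 (0.0%), and 213 genes were lower (2.63%) and 228 higher (2.81%) at an unadjusted p under 0.05. None of the 6 genes therefore passed.

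**Figure D1:**
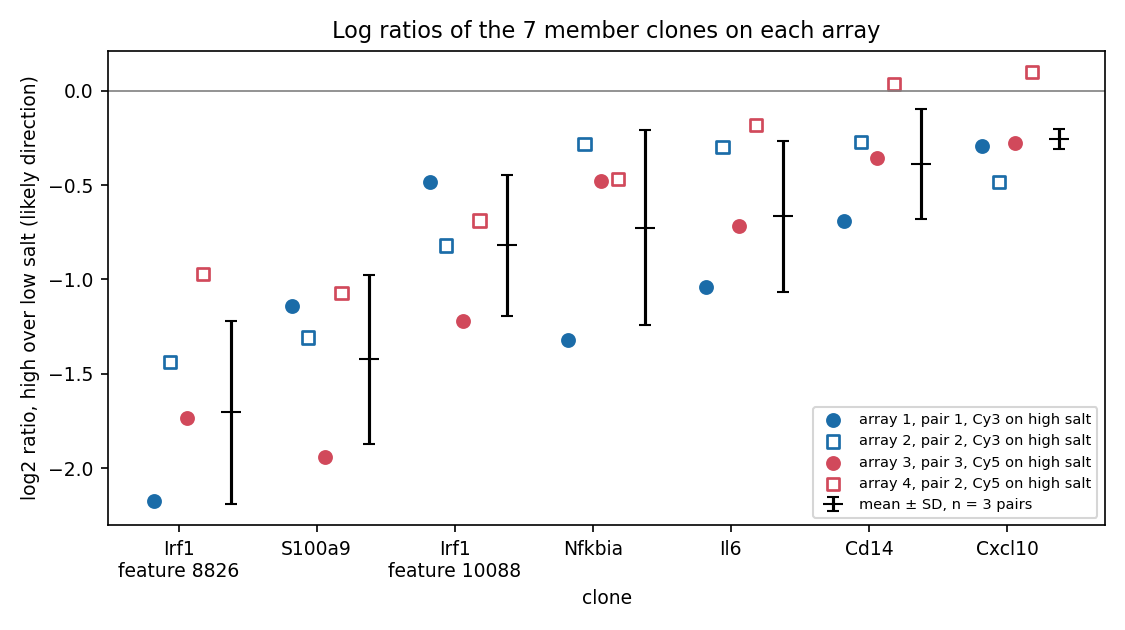
Log2 ratio (vertical axis, high over low salt in the likely direction) of each of the 7 clones (horizontal axis) on arrays 1 to 4, with colour for the dye on high salt, open squares for both arrays of pair 2, and the mean ± SD of 3 pairs as a black bar. The 2 positive points are those of Cd14 and Cxcl10 on array 4, and the Irf1 clone at feature 8826 reaches -2.17 on array 1.

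The receptor end of the pathway was represented by Cd14. Its log2 ratio was -0.69 on array 1, -0.27 and 0.03 on arrays 2 and 4 of pair 2, and -0.36 on array 3. The mean was -0.39 ± 0.29 (SD, n = 3 pairs), or 76.4% of the low-salt level. Pair 1 was the lowest, pair 2 lay near 0, and without pair 1 the mean was -0.24. It was 0.16 with arrays 1 and 2 turned.

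Nfkbia, the NF-kB inhibitor, stood at -1.32 on array 1, -0.28 on array 2, -0.47 on array 4 and -0.48 on array 3. Array 1 stood well below the other arrays, which lay close together. The mean was -0.72 ± 0.52 (SD, n = 3 pairs), or -0.43 without pair 1. The turned mean was 0.25.

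Il6 had log2 ratios of -1.04 on array 1, -0.30 on array 2, -0.18 on array 4 and -0.72 on array 3. Its arrays of pair 2 were close to each other and both lay nearer to 0 than those of pairs 1 and 3. The mean was -0.67 ± 0.40 (SD, n = 3 pairs), or 63.0% of the low-salt level, and 0.13 with arrays 1 and 2 turned.

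Irf1, the interferon-regulated transcription factor, was below 0 on every array for both clones. The clone at feature 8826 stood at -2.17, -1.44, -1.73 and -0.97 on arrays 1 to 4, with a mean of -1.70 ± 0.48 (SD, n = 3 pairs). The clone at feature 10088 stood at -0.48, -0.82, -1.22 and -0.69, with a mean of -0.82 ± 0.37. The clones differed most in pair 1, where the first was the lowest of its arrays and the second the highest. Averaged, the gene stood at -1.33, -1.13, -1.48 and -0.83 on arrays 1 to 4, with a mean of -1.26 ± 0.26. That SD is smaller than either clone's because the clones ordered the pairs differently. With arrays 1 and 2 turned, the clones stood at 0.22 and -0.22 and the gene at -0.00021 ± 1.41.

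Cxcl10, the interferon-induced chemokine, had the smallest difference. Its log2 ratio was -0.29 on array 1, -0.48 on array 2, 0.10 on array 4 and -0.28 on array 3. The mean was -0.26 ± 0.054 (SD, n = 3 pairs), or 83.8% of the low-salt level. The small SD hides a gap of -0.58 between arrays 2 and 4, the widest of the 6 genes for the same RNA, while the median gap over all genes was 0.195 in size. With pair 2 taken from array 4 alone the mean was -0.16, and with arrays 1 and 2 turned it was 0.10.

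S100a9, the neutrophil and monocyte calcium-binding protein, had the lowest mean. It stood at -1.14 on array 1, -1.31 on array 2, -1.07 on array 4 and -1.94 on array 3. Pairs 1 and 2 were alike and pair 3 was lower. The mean was -1.42 ± 0.45 (SD, n = 3 pairs), or 37.3% of the low-salt level. The turned mean was -0.23 ± 1.57.

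The 6 genes differed in their pattern over the pairs. Pair 2 was the pair nearest to 0 in 5 of 6 genes, S100a9 being the exception. Pair 1 was the lowest for Cd14, Nfkbia, Il6 and Cxcl10, and pair 3 for Irf1 and S100a9. The median of the 6 genes was -1.09 in pair 1, -0.31 in pair 2 and -0.60 in pair 3, and the median of their means was -0.70, or -0.45 without pair 1. As a description of likeness, the straight-line distance over the 4 array values was 0.46 between Il6 and Nfkbia, 0.46 between Cd14 and Cxcl10 and 0.58 between Irf1 and S100a9, and 2.35 between S100a9 and Cxcl10.

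The other genes of these pathways came from lists written with earlier results of these data known, and they are described by counts. No gene of any list passed at an adjusted p of 0.05 by limma. The median over all 8106 genes was -0.00026, and 50.1% of them had a mean below 0.

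**Figure D2:**
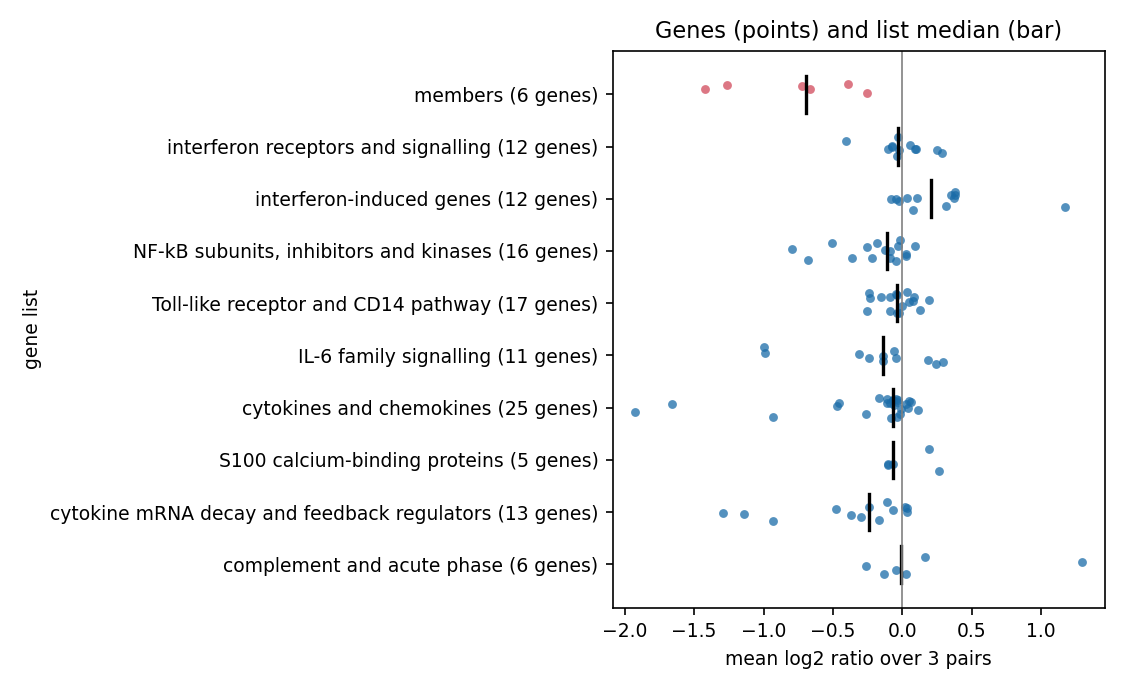
Mean log2 ratio over 3 pairs (horizontal axis) of each measured gene (points) in the 6-gene group and in 9 pathway lists (vertical axis), with black bars for list medians. The 6 genes and single genes of the cytokine, IL-6, NF-kB and feedback lists lie far to the left, and the interferon-induced list has its median at 0.21.

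Beside Cd14, Toll-like receptor pathway genes stayed near 0. Of 17 measured, 11 were lower and 6 higher, the median log2 ratio was -0.04, and 0 passed even the unadjusted threshold in either direction. Tlr1, Myd88 and Tlr2 had the largest means, at -0.25 ± 0.28, -0.24 ± 0.27 and -0.24 ± 0.18 (SD, n = 3 pairs). Tlr4, the receptor that CD14 serves, stood at 0.05 ± 0.082. Turning arrays 1 and 2 gave a list median of -0.10, with 9 lower and 8 higher, and means of 0.13 for Tlr1, -0.12 for Myd88 and 0.13 for Tlr2.

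Beside Nfkbia, 13 of 16 NF-kB subunits, inhibitors and kinases were below 0, with a median of -0.11. At the unadjusted threshold 2 were lower, Birc3 and Relb, and 0 were higher. Birc3, an apoptosis inhibitor induced by NF-kB, stood at -1.25, -0.35, -0.87 and -0.19 on arrays 1 to 4, with a mean of -0.80 ± 0.50 (SD, n = 3 pairs). Like Nfkbia and Il6 it was lowest in pair 1 and nearest to 0 in pair 2. Relb, an NF-kB subunit, had a mean of -0.51 ± 0.28. Nfkbiz, an inducible nuclear IκB protein, had a mean of -0.68 ± 0.86 and rested on pair 1, at -1.66 against -0.10, -0.35 and 0.03 on arrays 2 to 4. Rela, the main transactivating subunit, was at -0.36 ± 0.36. On the turned arrays 8 were lower and 8 higher, with a median of -0.0036. Birc3 and Nfkbiz then stood above 0, at 0.15 and 0.46, and Relb and Rela below, at -0.04 and -0.23.

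Beside Il6, the IL-6 family list had 8 of 11 genes lower and a median of -0.14, and 3 were lower at the unadjusted threshold and 0 higher. These 3 were Socs3, the feedback inhibitor of IL-6 signalling, at -0.998 ± 0.65, Junb, an AP-1 subunit, at -0.99 ± 0.71, and Cebpd, an acute-phase transcription factor, at -0.31 ± 0.15 (SD, n = 3 pairs). Junb was lowest in pair 3, unlike Il6. So was Socs3 averaged over its clones, but these differed. The clone at feature 1656 stood at -1.26 in pair 1 and -1.21 in pair 3, and that at feature 6651 at -0.87 and -2.02. The receptor chains were near 0, with Il6ra at -0.05 ± 0.068 and Il6st at -0.14 ± 0.15. The turned list median was -0.21, with 7 lower. Turned, Socs3 stood at -0.23, Junb at -0.40 and Cebpd at 0.05.

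Cytokines and chemokines were below 0 in 20 of 25 genes, yet the median was only -0.06. At the unadjusted threshold 4 were lower, Ccl7, Ccl2, Csf1 and Il1b, and 0 were higher. The monocyte chemoattractants Ccl7 and Ccl2 had the largest differences of all listed genes. Ccl2 stood at -2.93, -0.91, -1.19 and -0.78 on arrays 1 to 4, with a mean of -1.66 ± 1.12 (SD, n = 3 pairs). Ccl7, its neighbour in function, had a mean of -1.92 ± 1.26. Both were by far the lowest in pair 1, and with arrays 1 and 2 turned their means were 0.60 and 0.64. Csf1, the macrophage growth factor, averaged -0.93 ± 0.50, but its clones differed, at -1.20 and -0.67, and the second stood at 0.23 in pair 1. Il1b, the inflammasome cytokine, was at -0.47 ± 0.36, whereas Tnf was at -0.11 ± 0.17. On the turned arrays 14 were lower and 11 higher, with a median of -0.02, and Csf1 stood at -0.26 and Il1b at 0.13.

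A list of cytokine mRNA decay and feedback regulators, called the feedback list, also holds Ptgs2, Vcam1, Selp, Plaur and F3. It had the lowest median of the pathway lists, -0.24, with 10 of 13 below 0. At the unadjusted threshold 5 were lower, Zfp36, Ier3, Gadd45b, Atf3 and Ptgs2, and 0 were higher. Below 0 on all 4 arrays were 6 of 13. Zfp36, which speeds decay of cytokine mRNA, stood at -1.67, -0.91, -1.23 and -1.05 on arrays 1 to 4 and had a mean of -1.30 ± 0.35 (SD, n = 3 pairs). It was low in every pair, as S100a9 and Irf1 were. Atf3, a stress-induced repressor, was at -1.14 ± 0.49 and Ier3, an early response gene, at -0.93 ± 0.57. The Atf3 clones stood at -1.36 ± 0.60, lowest in pair 1, and -0.92 ± 0.88, lowest in pair 3. The SD of the gene is smaller than either clone's because they ordered the pairs differently. On the turned arrays 6 were lower and 7 higher, with a median of 0.0029. Zfp36 then stood at 0.12, Atf3 at -0.21 and Ier3 at -0.45.

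**Figure D3:**
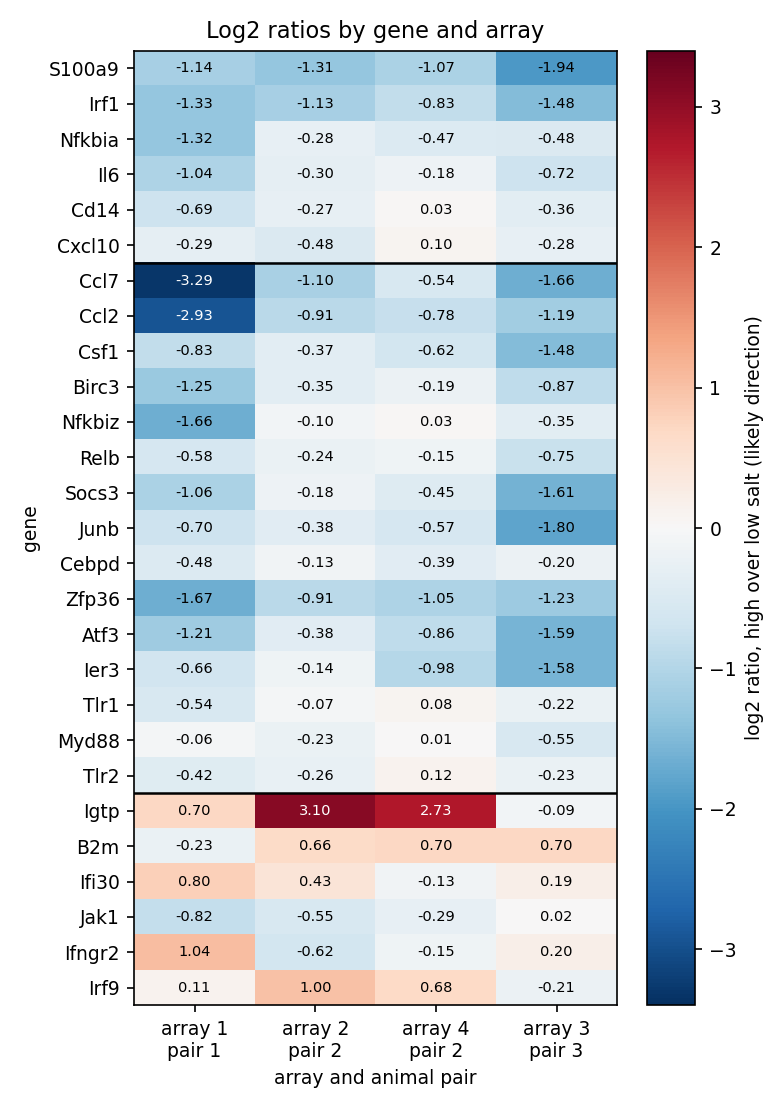
Log2 ratio (colour and printed value) of 27 genes (rows) on the 4 arrays (columns, with both arrays of pair 2 side by side). The upper block holds the 6 genes, the middle block the leading genes of the NF-kB, Toll-like receptor, IL-6, cytokine and feedback lists, and the lower block those of both interferon lists, where Igtp stands at 3.10 and 2.73 in pair 2.

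Of 12 measured interferon-induced genes other than Cxcl10, 9 were above 0 and 3 below, with a median of 0.21, and at the unadjusted threshold 1 was higher (Ddx58) and 0 lower. The list median was 0.63 in pair 2, 0.05 in pair 1 and -0.06 in pair 3, and without pair 2 the median was 0.02. Igtp, an interferon-gamma-induced GTPase, stood at 3.10 on array 2 and 2.73 on array 4, against 0.70 on array 1 and -0.09 on array 3. Both arrays of pair 2 were thus far above the others with either dye, and with array 2 turned they would stand at opposite ends for the same RNA. The mean of Igtp was 1.17 ± 1.56 (SD, n = 3 pairs). With arrays 1 and 2 turned, 10 of the 12 genes were lower, the list median was -0.07 and Igtp stood at -0.33.

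Pair 2 stood above 0 on both arrays in 9 of the 12 interferon-induced genes, against 20.8% of all genes. Above 0.5 on both were 6 of the 12, Igtp, Cxcl9, Ifitm3, B2m, Gbp2 and Ddx58, against 0.765% of all genes, a level and a pair chosen after the values were seen. Cxcl9, a chemokine with the same receptor as Cxcl10, stood at 1.02 and 0.86 on arrays 2 and 4, where Cxcl10 stood at -0.48 and 0.10. On arrays 1 and 3 Cxcl9 was at -0.22 and -0.49. Irf1 was at -1.13 and -0.83 on the same arrays of pair 2. Irf9, the DNA-binding subunit of the interferon-activated complex, was at 1.00 and 0.68 there, and at 0.11 and -0.21 on arrays 1 and 3. Whether the high-salt mouse of pair 2 had more of these RNAs or its low-salt partner less cannot be told apart from a ratio.

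**Figure D4:**
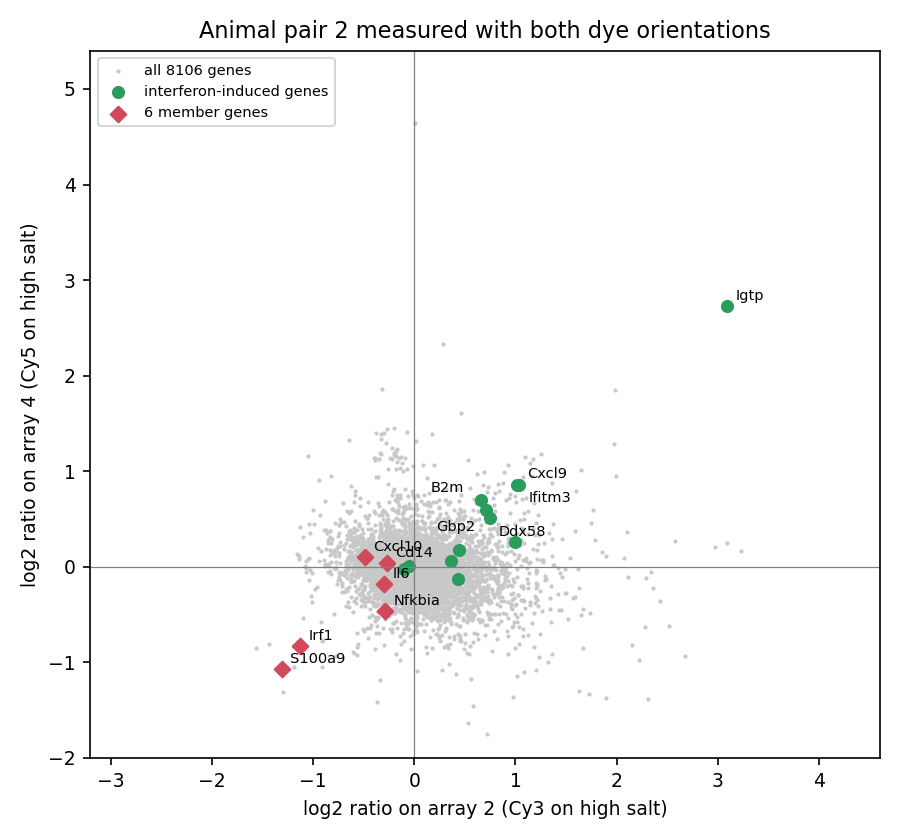
Log2 ratio of every gene on array 2 (horizontal axis) against array 4 (vertical axis), which carry the same RNAs with exchanged dyes, with the 6 genes as red diamonds and 12 interferon-induced genes as green circles. Irf1 and S100a9 lie low on both arrays, and Igtp lies alone at 3.10 and 2.73.

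Interferon receptors and signalling genes lay near 0, with 7 of 12 lower and a median of -0.03, and 0 passed the unadjusted threshold. The turned median was also -0.03. The largest means were those of the kinase Jak1, at -0.40 ± 0.42, the receptor chain Ifngr2, at 0.28 ± 0.72, and Irf9, at 0.25 ± 0.54 (SD, n = 3 pairs). Further, B2m, the light chain of class I molecules, and Ifi30, a lysosomal thiol reductase, both had means of 0.38, with SDs of 0.53 and 0.36. Turned means were 0.32 for Jak1, -0.20 for Ifngr2, -0.16 for Irf9, 0.32 for B2m and -0.30 for Ifi30.

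S100a9 was not matched by the measured genes of its family or of the neutrophil list. Dim clones could not be told from unchanged ones, since log ratios hold no level. S100a8 was not among the measured genes. Of 5 other genes of the S100 list 3 were lower and 2 higher, between -0.10 for S100a1 and S100pbp and 0.26 for S100a6. S100pbp encodes a binding protein and is not itself an S100 family member. At the unadjusted threshold S100a13 was higher, at 0.19 ± 0.076 (SD, n = 3 pairs). Of 17 neutrophil markers 7 were measured, without Ly6g, Mpo and Elane. Of these 4 were lower and 3 higher, with a median of -0.0093. Csf3r, the granulocyte growth factor receptor, stood at -0.13 ± 0.075 and Fcgr3, an immunoglobulin receptor, at 0.16 ± 0.20. Lcn2, an iron-siderophore binder stored in neutrophil granules and also made by other cells, stood at 1.11, 1.98, 1.15 and 1.28 on arrays 1 to 4, opposite to S100a9 on each. Its turned mean was -0.10, beside -0.23 for S100a9. The complement and acute phase list, which also holds Lcn2, had 3 of 6 genes lower and a median of -0.01, with Cp, the copper carrier ceruloplasmin, at -0.26 ± 0.10 and Serping1, a complement inhibitor, at 0.17 ± 0.22. Turned, they stood at 0.05 and -0.23.

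Markers of macrophages and monocytes, which express Cd14, were measured for 5 of 22 genes, 3 lower and 2 higher, with a median of -0.04. Their largest means were 0.45 ± 0.38 for Lyz2 and -0.38 ± 0.73 for Fcgr1 (SD, n = 3 pairs), and Fcer1g was at 0.15 ± 0.078. The turned means were 0.22, 0.52 and -0.16. Lymphocytes had 2 of 19 markers measured, Cd4 at -0.04 and Il7r at 0.01. List medians were -0.02 for endothelium (8 of 17 measured), 0.40 for fibroblasts (12 of 17), 0.13 for smooth muscle and pericytes (5 of 11), 0.05 for cardiomyocytes (5 of 18), 0.0048 for blood (3 of 12) and -0.06 for adipocytes (7 of 10). The fibroblast markers Sparc, Col3a1 and Col1a2 stood at 1.07 ± 0.36, 1.04 ± 0.19 and 1.03 ± 0.20, with clones of Col3a1 between 0.01 and 1.98, and at -0.28, -0.09 and -0.12 when turned. The part of these cell types in the values of the 6 genes was not tested. Log ratios hold no level, so the ventricle label could not be set against marker levels.

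The genes nearest to each of the 6 over the 4 array values were named by distance. Fos, the early AP-1 subunit, was nearest to both Il6 (distance 0.19) and Nfkbia (0.33), and stood at -1.13, -0.32, -0.72 and -0.35 on arrays 1 to 4. Its clones had like means of -0.74 and -0.71. Birc3 followed for both genes (0.27 and 0.49), then Adamts1, a matrix protease, for Il6 (0.29) and Arntl, a core clock gene, for Nfkbia (0.49). Myc (0.17), Ier5 (0.20) and Rnf125 (0.21) were nearest to Cd14. Of the 3 Myc clones, 1 was flat at -0.02 and the others stood at -0.59 and -0.65. For Irf1 they were Zfp36 (0.52), Vdac1 (0.64), the mitochondrial outer membrane channel, and Atf3 (0.76). The same genes were nearest to S100a9 at 0.97 for Zfp36, 1.01 for Atf3 and 1.09 for Vdac1. Atf3 was taken here as the mean of its clones, which ordered the pairs differently. Cxcl10, with the smallest difference of the 6, had Slc5a11 (0.11), Hk2 (0.15) and Mcl1 (0.17) nearest. The distances rest on 4 arrays with shared RNA on arrays 2 and 4, and follow size as well as shape.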

How the data were processed

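Per the labels' protocols, total RNA was reverse transcribed with oligo(dT), labelled with Cy3 or Cy5 and hybridised to printed cDNA arrays carrying a mouse embryonic clone set and custom clones. The authors deposited 1 log2 ratio per feature and array. The base (2 is assumed), background correction, normalization and direction of this deposited log2 ratio are stated nowhere in the labels or files used. Of 17664 features 17207 had values, and 736 at 23 recurring print positions with no gene name were left out as control-like. Clones of 1 symbol were averaged per gene. Arrays 2 and 4 were averaged as 1 pair, and the 3 pair values were tested against 0 with limma 3.58.1 (R 4.3.3), adjusted by Benjamini-Hochberg over 8106 genes. The labels name 6 separate mice. The fit was tested on simulated data. The members and all lists were chosen with earlier results of these data known. Named by rule were the 6 genes, the 3 genes of largest mean size per list, and the 3 nearest per member. Other settings tried are in the closing section.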

Additional observations from a re-analysis of the deposited data

Results flagged for a closer look

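Over the 4 arrays, 1 array stood apart from the rest by Dixon's ratio, its gap to the nearest value over the whole range, in 4 of 70 genes and clones looked at, while chance alone flags about 1 in 20. B2m was set apart by array 1, at -0.23 against 0.66 to 0.70 on the others (ratio 0.950). Atp2a2, a calcium pump of heart muscle named under its marker list, was set apart with a ratio of 0.875. For the collagen chain Col1a2 the ratio was 0.863, and for Fabp4, a fatty acid-binding protein, it was 0.857. None of the 6 genes, and neither Irf1 clone, passed. Arrays 2 and 4 share their RNA, so the 4 values are not independent.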

How the results depend on the processing

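The sign of most of these results depends on the direction of the arrays. With arrays 1 and 2 turned, the median of the 6 genes was 0.11, and the means were 0.10 for Cxcl10, 0.13 for Il6, 0.16 for Cd14, 0.25 for Nfkbia and 0.22 for the Irf1 clone at feature 8826. Turned means of S100a9 (-0.23), the Irf1 clone at feature 10088 (-0.22) and Irf1 as a gene (-0.00021) were below 0. For each of the 6 genes the turned mean was smaller in size than its SD over 3 pairs. These SDs ran from 0.33 for Cxcl10 to 1.57 for S100a9. With arrays 1 and 2 turned, the medians of the interferon-induced genes (-0.07) and the feedback list (0.0029) changed sign as well. So did those of smooth muscle and pericyte markers (-0.16), fibroblast markers (-0.10) and adipocyte markers (0.061). Small medians also changed sign in other settings. Interferon signalling lay between -0.046 (without pair 2) and 0.00086 (without pair 1). Macrophage markers lay between -0.075 (without pair 2) and 0.028 (without pair 3), at 0.0050 without pair 1. With pair 2 from array 2 alone they stood at 0.0068 and adipocyte markers at 0.0069. Without pair 3 the median rose above 0 for Toll-like receptor genes (0.016), complement and acute phase genes (0.066) and lymphocyte (0.015) and endothelial markers (0.064). In that setting the medians of cardiomyocyte (-0.087) and blood markers (-0.0078) fell below 0. The median of the S100 list, -0.071 in the main setting, was 0.017 without pair 1. As deposited, each of the 6 genes stayed below 0 in all 11 other settings, between -1.57 and -1.17 for S100a9, -1.40 and -1.15 for Irf1, -0.90 and -0.43 for Nfkbia, -0.88 and -0.48 for Il6, -0.52 and -0.24 for Cd14 and -0.35 and -0.16 for Cxcl10. These settings were pair 2 from either array, centred or scaled arrays with and without control-like features, and the median of clones. A dye covariate and each pair left out made up the rest. All 3 pair values of each gene were below 0, so leaving out a pair could not change the sign. Centring shifted each array by at most 0.01 and scaling kept the sign of each array value. Those settings could therefore hardly change the sign either. The dye covariate and the median of clones gave the main means again. The limma test passed 0 genes at the adjusted threshold in every setting. At an unadjusted p under 0.05, 1118 genes were lower and 565 higher with arrays 1 and 2 turned. With a dye covariate on the 3 pair values, added after seeing the data, these counts were 545 and 643. Testing 16471 clones gave 394 and 464, and testing 17207 features gave 364 and 435. Leaving out a pair gave 71 (pair 2) to 340 (pair 3) lower and 74 (pair 2) to 511 (pair 3) higher. A fit of 4 arrays with pair as a random block could not be made, since its correlation could not be estimated. Signal over background is not known from log ratios, so dim clones could not be set apart, and 4 arrays limit the precision.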
